A study of Mus musculus with 6 samples.

Results

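The MHC class II antigen presentation genes described here are 7 of the 38561 genes in the count table, chosen by name: H2-Aa, H2-Ab1, H2-Eb1, Cd74, Ciita, H2-DMa and H2-DMb1. All 7 were matched to a row and all 7 passed the filter on low counts, which left 15498 genes for testing. The libraries hold vomeronasal organ RNA of CD-1 males, an outbred mouse stock, pulled down through phosphorylated ribosomal protein S6 (pS6), which marks ribosomes of recently active or growing cells. There are 3 libraries labelled pup exposure and 3 labelled control exposure, with no account of what the control was. Strain, sex, tissue and antibody are the same in both groups, while age, length of exposure and the number of animals per library are not stated in the labels. No library of unprecipitated RNA was analysed here.

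MHC class II molecules show peptides from endocytosed protein to CD4+ T cells. An alpha and a beta chain assemble in the endoplasmic reticulum around the invariant chain, encoded by Cd74, which blocks the groove and carries the complex to endosomes. There the invariant chain is degraded and H2-DM, a heterodimer of H2-DMa and H2-DMb products, exchanges its last fragment for a peptide. CIITA, the product of Ciita, is the master coactivator of these genes. It binds no DNA itself and is recruited by RFX, CREB-family and NF-Y proteins on the X and Y boxes of class II promoters. Dendritic cells, macrophages and B cells carry class II constitutively, and interferon gamma can induce it in many other cells, epithelium included.

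Total counts were 10590716 to 11240065 per control exposure library and 18199476 to 20871266 per pup exposure library, so depth was separated by group. TMM factors, which rescale library sizes for unequal RNA composition, were lowest in control exposure replicate 3, at 0.605, and highest in pup exposure replicate 2, at 1.39. CPM below means counts per 1e6 of the TMM-scaled library size. The vomeronasal neuron markers Omp, Gnai2, Gnao1, Ano1 and Ncam1 summed to 1231 to 1354 CPM in control exposure and 1264 to 1559 CPM in pup exposure libraries. Trpc2, a further defining marker, was not matched to a row, and whether other olfactory tissue was part of the libraries was not tested.

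Of the class II genes, 6 had lower mean levels after pup exposure, at 0.346 to 0.616 of the control exposure mean, and H2-DMb1 was nearly level at 0.932. None passed an adjusted p of 0.05. The invariant chain gene and the chains of the I-A molecule had the lowest ratios: H2-Ab1, the I-A beta chain, had 0.346 of its control exposure mean, H2-Aa, the I-A alpha chain, 0.479, and Cd74 0.485. Ciita, the coactivator of the others, did not follow their order over the libraries.

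Entries of the RefSeq promoter table (GRCm38.p6) were used for 4 of the 7 members, H2-Aa, H2-Eb1, H2-DMb1 and H2-DMa, and for H2-DMb2. No promoter of Cd74, H2-Ab1 or Ciita is described here. The 130 bases before the annotated start are shown for H2-Aa (chr17:34287824-34287953, minus strand), H2-Eb1 (chr17:34305737-34305866, plus strand), H2-DMb1 (chr17:34153061-34153190, plus strand) and H2-DMb2 (chr17:34145119-34145248, plus strand), since CIITA acts through such promoters. Whether the fold changes of these genes differ from each other, or relate to these sequences, was not tested. The start is that of RefSeq, and positions below count from it. The H2-Aa and H2-Eb1 windows adjoin the GENCODE gene starts. GENCODE starts H2-DMb1 at 34153072 and H2-DMb2 at 34143307, so their windows lie mostly or wholly inside those genes. Capitals mark matches to the motifs described next.
H2-Aa: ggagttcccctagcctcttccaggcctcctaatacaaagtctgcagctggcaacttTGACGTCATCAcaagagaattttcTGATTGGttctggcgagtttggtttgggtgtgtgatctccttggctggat
H2-Eb1: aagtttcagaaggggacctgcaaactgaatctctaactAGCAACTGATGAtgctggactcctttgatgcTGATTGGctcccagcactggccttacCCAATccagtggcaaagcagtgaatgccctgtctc
H2-DMb1: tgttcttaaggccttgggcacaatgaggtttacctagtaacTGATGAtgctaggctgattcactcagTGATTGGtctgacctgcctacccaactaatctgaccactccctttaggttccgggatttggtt
H2-DMb2: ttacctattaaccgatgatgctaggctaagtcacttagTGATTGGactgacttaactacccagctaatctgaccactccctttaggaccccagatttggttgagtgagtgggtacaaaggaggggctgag

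Motifs were searched on both strands in the 300 bases of each table entry. TGATTGG, the Y box that NF-Y binds, matched once in each of these 4 promoters, on the gene's strand, and was held by 7.82% of the 32851 promoters in the table. Its positions from the start were -50 to -44 in H2-Aa, -61 to -55 in H2-Eb1, -63 to -57 in H2-DMb1 and -92 to -86 in H2-DMb2. ATTGG, its core and therefore part of every such match, was held by 37.4% of promoters, and also lay on the opposite strand of H2-Eb1 at -35 to -31. AGCAAC, a part of the X1 box that RFX binds, matched H2-Eb1 at -92 to -87 (14.8% of promoters). TGACGT, a part of the X2 box, matched H2-Aa on both strands, at -74 to -69 and -72 to -67 (7.51% of promoters).

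TGATGA, X2-like letters added after these sequences were seen, matched H2-Eb1 at -86 to -81, H2-DMb1 at -89 to -84 and the opposite strand of H2-Aa at -69 to -64, where it overlaps TGACGT (12.4% of promoters). The bases between the X2 part and the Y box numbered 18 in H2-Aa for TGACGT on the gene's strand, and 19 in H2-Eb1 and 20 in H2-DMb1 for TGATGA. H2-DMb2 had CGATGA where H2-DMb1 has TGATGA, so its lack of a match rests on that base. Of the 2 entries for H2-DMa, one held none of these letters and the other only ATTGG, at -198 to -194. Both entries lie inside the gene as GENCODE places it, from 34119541 to 34139101. Whether either is the promoter of its principal transcript was not tested. A match is a description of letters and not a site of binding.

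**Figure D1:**
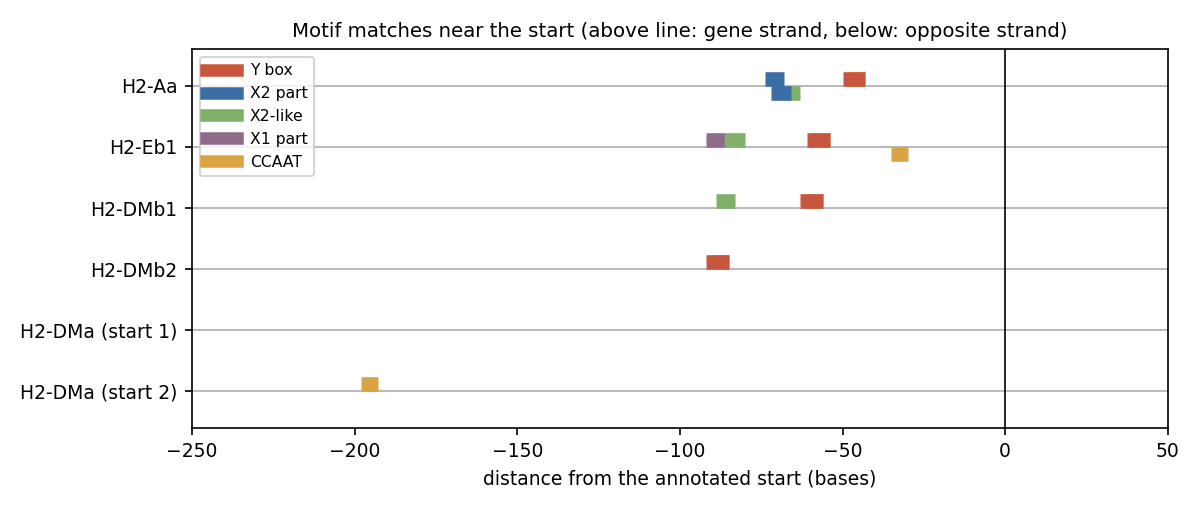
Positions of motif matches in each promoter entry, in bases from the annotated start (x axis), one line per entry, with matches on the gene's strand drawn above the line and those on the opposite strand below it. The Y box lies between -92 and -44 in H2-Aa, H2-Eb1, H2-DMb1 and H2-DMb2. The searched X-box letters lie before it in the first 3, while H2-DMb2 has CGATGA in place of TGATGA. H2-DMa holds only the CCAAT core at its second start, and both its starts lie inside the gene as GENCODE places it.

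GENCODE M21 on GRCm38 places H2-Ab1 (17, 34257689 to 34269419, plus strand), H2-Aa (34282744 to 34287823, minus strand), H2-Eb1 (34305867 to 34316674, plus strand), H2-DMa (34119541 to 34139101, plus strand) and H2-DMb1 (34153072 to 34160230, plus strand) together in the MHC of chromosome 17, all as protein-coding genes. Cd74 lies on chromosome 18 from 60803848 to 60812652 and Ciita on chromosome 16 from 10480059 to 10528418, both on the plus strand. Of the 50-base words in the principal transcripts of H2-Aa, H2-Ab1, H2-Eb1, Cd74 and H2-DMa, 0 occurred in a transcript of another gene. CD-1 mice may carry class II alleles that differ from the reference strain, and how many of their reads failed to align was not tested.

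Levels between genes were compared per kilobase of the principal transcript. Cd74 was highest, at 597 ± 274 CPM per kb in the control libraries and 290 ± 86.9 in the pup libraries (SD, n = 3 each). H2-Aa (187 ± 60.2 and 89.9 ± 38.2 CPM per kb) and H2-Ab1 (203 ± 110 and 70.2 ± 18.5 CPM per kb) came next and did not differ from each other beyond their spread. H2-Eb1, the I-E beta chain, followed at 35.7 ± 11.3 and 21.1 ± 4.46 CPM per kb. H2-DMa (11.8 ± 4.14 and 7.29 ± 3.39) and H2-DMb1 (7.84 ± 2.05 and 7.31 ± 0.527 CPM per kb) lay within their spread of each other, and Ciita was lowest at 1.13 ± 0.652 and 0.660 ± 0.558 CPM per kb (SD, n = 3 each). Cd74 alone held 58.1% to 64.0% of the summed class II counts of a library.

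**Figure D2:**
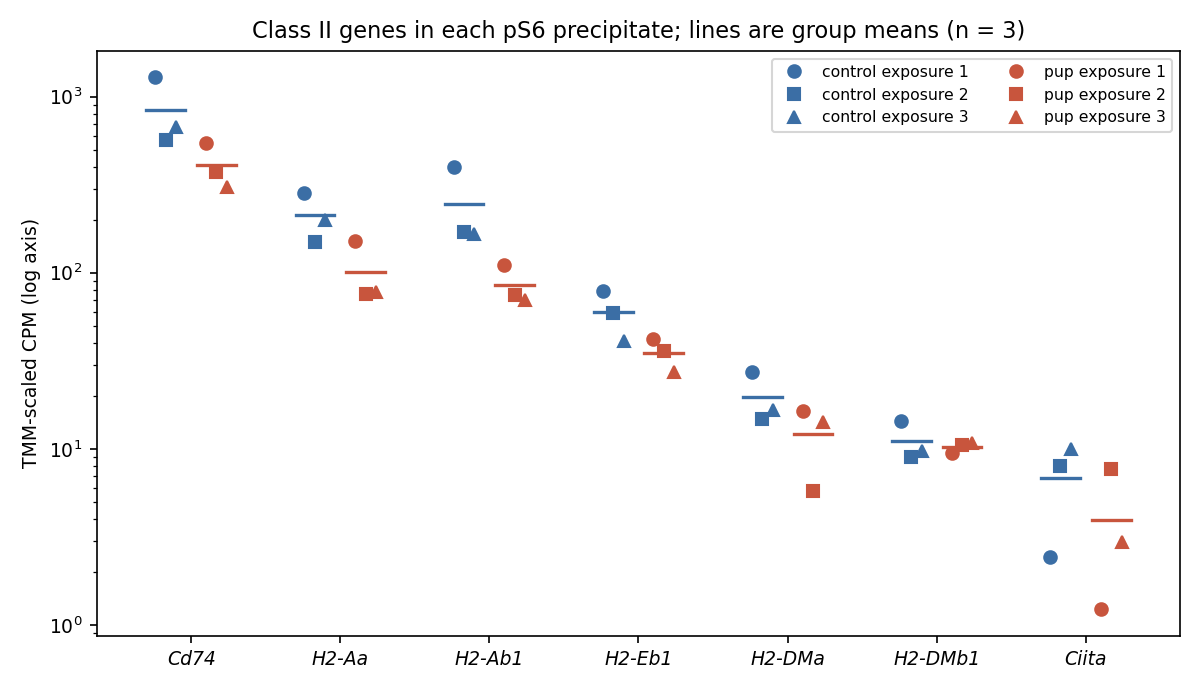
TMM-scaled CPM of each class II gene (log axis) in every library, control exposure in blue and pup exposure in red, with a symbol per replicate number and a line at each group mean (n = 3). Control exposure replicate 1 is the highest library for every gene but Ciita, and the groups are fully apart for Cd74 and H2-Ab1 only.

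H2-Ab1 (ENSMUSG00000073421) had 400.5, 171 and 167 CPM in the control libraries and 111, 74.7 and 69.7 CPM in the pup libraries. Every pup exposure library lay below every control exposure library. Its log2 fold change, pup exposure over control exposure, was -1.53 (SE 0.45) in edgeR's quasi-likelihood test, with a Benjamini-Hochberg adjusted p of 0.395 over all genes and an unadjusted p of 0.00543. In DESeq2 its adjusted p was 0.0508, and over all alternatives the adjusted p ran from 0.0508 to 0.831. Without control exposure replicate 1, the library with the highest value, the log2 fold change was -0.98 (edgeR adjusted p = 0.673).

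H2-Aa (ENSMUSG00000036594) had 284, 150.2 and 199.7 CPM in the control libraries and 151.2, 75.5 and 77.5 CPM in the pup libraries. The groups overlapped by a small margin, between control exposure replicate 2 and pup exposure replicate 1. The log2 fold change was -1.06 (SE 0.43, edgeR adjusted p = 0.437, unadjusted p = 0.0293), and it ran from -1.46 without pup exposure replicate 1 to -0.78 without control exposure replicate 1.

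Cd74 (ENSMUSG00000024610), the invariant chain gene, had 1285, 569.7 and 670.8 CPM in the control libraries and 545, 374 and 307 CPM in the pup libraries. Its groups did not overlap, by the margin between control exposure replicate 2 and pup exposure replicate 1. The log2 fold change was -1.04 (SE 0.45, edgeR adjusted p = 0.447, unadjusted p = 0.0406) and was -0.60 without control exposure replicate 1 (adjusted p = 0.722). The counts behind these values were 4297 to 16420 per library, so that counting error is small beside the spread between libraries.

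H2-Eb1 (ENSMUSG00000060586) had 78.9, 58.7 and 41.1 CPM in the control libraries and 42.1, 36.1 and 27.3 CPM in the pup libraries. The groups overlapped only where pup exposure replicate 1 exceeded control exposure replicate 3. The log2 fold change was -0.76 (SE 0.38, edgeR adjusted p = 0.479), and -0.50 without control exposure replicate 1. H2-Ea-ps, the I-E alpha chain gene, which the annotation calls a polymorphic pseudogene because some laboratory strains carry a null allele, had 128 to 557 counts per library. Its level was 19.3 ± 1.498 CPM in the control group and 18.2 ± 8.89 CPM in the pup group (SD, n = 3 each), with a log2 fold change of -0.085 (SE 0.44, edgeR adjusted p = 0.954).

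The peptide-exchange genes were less abundant. H2-DMa (ENSMUSG00000037649) had 27.5, 14.7 and 16.7 CPM in the control libraries and 16.4, 5.73 and 14.2 CPM in the pup libraries, with overlapping groups. Its log2 fold change was -0.70 (SE 0.48, edgeR adjusted p = 0.589), -0.35 without pup exposure replicate 2, its lowest library, and -0.37 without control exposure replicate 1, its highest. Of its annotated exon bases, 10.4% overlap Brd2 on the opposite strand, and whether counting used strand is not given in the sources used here. Brd2, a chromatin reader, had a log2 fold change of 0.88 (SE 0.40, edgeR adjusted p = 0.456), and the part of its reads in H2-DMa was not tested.

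H2-DMb1 (ENSMUSG00000079547) had 14.3, 9.04 and 9.68 CPM in the control libraries and 9.42, 10.6 and 10.8 CPM in the pup libraries. Apart from control exposure replicate 1 the 5 other libraries lay within 9.04 to 10.8 CPM. The log2 fold change was -0.10 (SE 0.42, edgeR adjusted p = 0.939), and it turned to 0.14 without control exposure replicate 1 and to 0.14 with library totals only. Its neighbour H2-DMb2, a second DM beta chain gene, had a log2 fold change of 0.12 (SE 0.42, edgeR adjusted p = 0.931).

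H2-DMb1 and H2-DMb2 cannot be fully told apart by short reads. Their coding sequences, 783 bases each in the GENCODE M21 transcripts on chromosome 17, were 95.9% identical with 32 differences, and the longest identical run was 221 bases. Of the 50-base words of the H2-DMb1 transcript, 27.2% also occurred in H2-DMb2. Bases 208 to 297 of the coding sequence, the first window of 90 bases with the most differences (19, in capitals), show where reads can be assigned.
H2-DMb1: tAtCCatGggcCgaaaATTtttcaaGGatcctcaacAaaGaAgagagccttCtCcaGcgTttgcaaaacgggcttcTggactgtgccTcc
H2-DMb2: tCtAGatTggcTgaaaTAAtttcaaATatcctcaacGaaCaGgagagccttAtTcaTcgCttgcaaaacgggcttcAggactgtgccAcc

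Per length the ratio of H2-DMb1 to H2-DMb2 was 0.925 to 0.993 in the control exposure libraries and 0.595, 1.06 and 0.970 in pup exposure replicates 1, 2 and 3. With both genes summed, an alternative chosen after seeing the data, the log2 fold change was 0.014 (SE 0.37, edgeR adjusted p = 0.992).

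Ciita (ENSMUSG00000022504) had 31, 89 and 64 counts in the control exposure libraries and 23, 218 and 60 counts in the pup exposure libraries. In CPM these were 2.43, 7.97 and 9.99 against 1.23, 7.71 and 2.96. The groups overlapped, and the library highest for the other members, control exposure replicate 1, was the lowest control exposure library for Ciita. The log2 fold change was -0.76 (SE 0.75, edgeR adjusted p = 0.707), and single libraries moved it widely. It was -1.67 when pup exposure replicate 2 was left out and -0.33 when pup exposure replicate 1 was. Leaving out control exposure replicate 1 gave -1.16 and leaving out control exposure replicate 3 gave -0.40. With library totals only it was -0.21. Of its exon bases 3.45% overlap Dexi on the opposite strand, which had 11 to 326 counts per library.

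**Figure D3:**
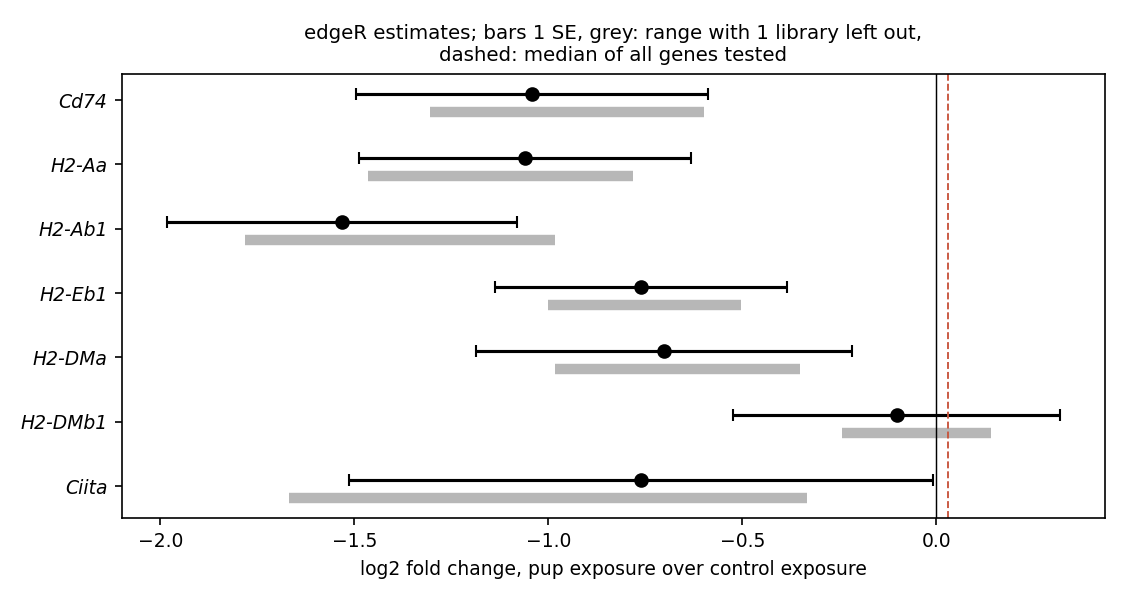
Log2 fold change of each class II gene, pup exposure over control exposure, from edgeR (points, with bars of 1 SE), the range over fits with 1 library left out (grey) and the median of all genes tested (dashed line at 0.030). All 7 points lie below 0, and the grey range of H2-DMb1 alone crosses it.

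Counted together, 7 of 7 members had a negative log2 fold change with a median of -0.76, beside 48.5% of all genes tested and a median of 0.030. In edgeR 0 members passed an adjusted p of 0.05, as did 0% of all genes in either direction. At an unadjusted p under 0.05, 3 members (H2-Ab1, H2-Aa and Cd74) were lower and 0 higher, where 4.67% of all genes were lower. DESeq2 and limma-voom gave these 3 genes too at an unadjusted p under 0.05, which DESeq2 gave for 4.69% of its genes lower and 4.85% higher and limma-voom for 5.43% lower. Adjusted, 0 members passed in DESeq2 (0.626% of its genes lower, 0.406% higher), in limma-voom (0.0452% lower, 0.00645% higher) or in edgeR without a filter on low counts (0.247% lower, 0.255% higher). In 2 other fits there were 4 members, with H2-Eb1 added: limma-voom with sample quality weights (6.26% of all genes lower) and edgeR without the third control exposure replicate (4.48%). In 4 other fits there was 1 member, H2-Ab1: with unscaled library totals (1.08% of all genes lower), without the first control exposure replicate (2.83%), and without the second (2.59%) or the third pup exposure replicate (4.53%). In 2 members, H2-Ab1 and Cd74, the groups did not overlap, where pup exposure was the lower group in 9.62% of all genes.

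The summed counts of the 7 genes were 0.238%, 0.103% and 0.0674% of the library total after control exposure and 0.0899%, 0.0810% and 0.0495% after pup exposure. Control exposure replicate 1 held the largest share and the other control exposure libraries overlapped with the pup exposure libraries. The means were 0.136% ± 0.0899 and 0.0734% ± 0.0212 (SD, n = 3 each), a ratio of 0.539 (exact permutation test, two-sided, p = 0.4). Without control exposure replicate 1 the ratio was 0.861. With the 50 most abundant genes left out of the total, the ratio was 0.496, and with TMM-scaled library sizes it was 0.470. Under both of these the groups did not overlap (exact permutation p = 0.1, the smallest that 3 against 3 libraries can give). Obp2a alone, a secreted odorant-binding protein, took 9.38% to 26.0% of a library's counts, with the highest share in control exposure replicate 3. With library totals only, the groups overlapped in all 7 members.

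Ratios between members of 1 library do not depend on its scaling, and 7 of them were compared per length. The ratio of Cd74 to H2-Ab1 was 2.76, 2.87 and 3.46 after control exposure and 4.23, 4.30 and 3.79 after pup exposure. Every pup exposure library had the higher ratio. H2-Eb1 over H2-Ab1 was 0.143, 0.250 and 0.179 after control exposure and 0.276, 0.351 and 0.284 after pup exposure, also with no overlap. H2-Ab1 is the denominator of both ratios, so they are not independent results. Both had an exact permutation p of 0.1, the smallest possible, which was 0.35 when adjusted over the 7 ratios. Among these 7 ratios the other 5, which included Cd74 over H2-Aa (3.11 ± 0.468 and 3.34 ± 0.558) and H2-Aa over H2-Ab1 (0.999 ± 0.266 and 1.25 ± 0.196, SD, n = 3 each), had overlapping groups.

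Likeness of pattern was measured as the root mean square difference between 2 genes' log2 CPM over the 6 libraries, each centred on its own mean, so that small values mean like patterns. All libraries share their depth and scaling between genes, so this is a description. The closest pairs of members were H2-Aa with Cd74 (0.190), H2-Ab1 with Cd74 (0.249) and H2-Eb1 with Cd74 (0.297). The 6 pairs that include Ciita were the least alike of the 21 pairs, at 1.14 to 1.47. Ciita differed from the mean pattern of the members by 1.09, where the other 6 members differed by 0.228 to 0.472 and the median over 15491 other genes was 0.806. Each member is part of that mean and the other genes are not, which by itself draws members nearer to it.

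**Figure D4:**
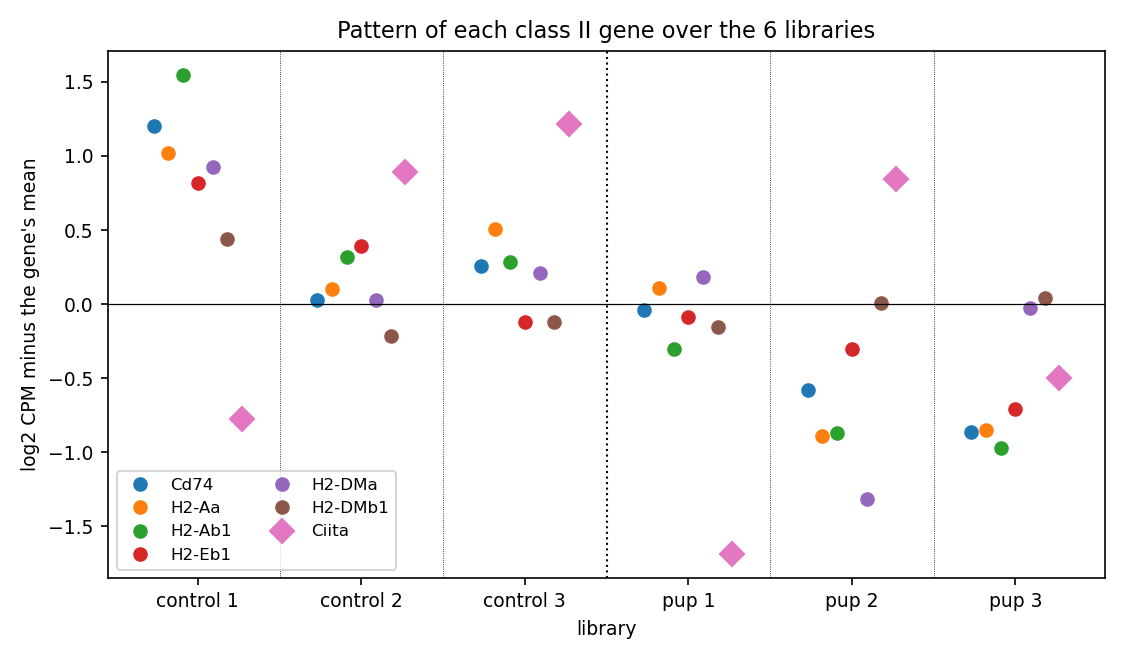
Log2 CPM of each class II gene minus its own mean over the 6 libraries (y axis), by library (x axis). The chain genes and Cd74 lie highest in control exposure replicate 1 and below 0 in pup exposure replicates 2 and 3, while Ciita (diamonds) is at -0.77 in control exposure replicate 1 and 0.85 in pup exposure replicate 2.

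The 10 tested genes with patterns most like the members' mean, Ciita included in that mean, were Gm5529, Haus7, Mrps9, Slc22a17, Pcna-ps2, Pdia6, Amz2, Myg1, Fahd2a and Mir99ahg, with differences of 0.0486 to 0.114. None of them is in a pathway or marker list used here. Their log2 fold changes were -0.89 to -0.75, and edgeR adjusted p values were 0.437 to 0.600. Pdia6, a disulfide isomerase of the endoplasmic reticulum, was the most abundant of them, at 705 CPM in the control libraries and 406 CPM in the pup libraries.

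Of 14 other genes of the class II pathway, 13 had a row and 10 were tested, with 7 negative and 3 positive log2 fold changes, a median of -0.45 and 0 past the threshold. With library totals only, which moved the median of all genes from 0.030 to 0.31, the median of this list was -0.16. At an unadjusted p under 0.05, 1 was higher (6.31% of all genes) and 0 lower. Ctss, a protease that trims the invariant chain in antigen-presenting cells, had 46.2, 34.1 and 54.8 CPM in the control libraries and 38.7, 15.4 and 18.7 CPM in the pup libraries. Its log2 fold change was -0.89 (SE 0.43, edgeR adjusted p = 0.466). Ctsd, an aspartic protease of lysosomes, was at -0.74 (SE 0.42, adjusted p = 0.519) with groups that did not overlap. Among all genes, 9.62% had non-overlapping groups with pup exposure lower, and by library totals the Ctsd groups overlapped. Ubiquitin ligases that remove class II from the cell surface had positive values: March8 was at 0.91 (SE 0.39, edgeR adjusted p = 0.447) with no overlap of groups, and March1 at 1.82 (SE 1.09, adjusted p = 0.539) on 2 to 61 counts. Among all genes, 10.1% had non-overlapping groups with pup exposure higher. H2-Oa and H2-Ob, the chains of the DM inhibitor, and H2-Eb2 were under the filter, with 0 to 32 counts per library.

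Of 17 transcription factors and interferon gamma pathway genes, 15 were tested, with 6 negative and 9 positive log2 fold changes, a median of 0.14, or 0.46 with library totals only, and 0 past the threshold. Creb1, a CREB-family factor, had 20.6, 17.7 and 12.5 CPM in the control libraries and 50.1, 61.5 and 34.3 CPM in the pup libraries. Its groups did not overlap, and pup exposure was likewise the wholly higher group in 10.1% of all genes. Its log2 fold change was 1.52 (SE 0.39, edgeR adjusted p = 0.375). It was the 1 member of this list at an unadjusted p under 0.05, where 6.31% of all genes were higher. The RFX subunit Rfx5 was at 1.06 (SE 0.74, edgeR adjusted p = 0.590), Rfxank at -0.58 (SE 0.43, adjusted p = 0.609) and Rfxap at 0.10 (SE 0.69, adjusted p = 0.964). Ifng had 0 counts in all 6 libraries. Its receptor genes were tested, with Ifngr1 at -0.25 (SE 0.35, adjusted p = 0.798) and Ifngr2 at 0.85 (SE 0.45, adjusted p = 0.496).

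The class I list of 9 genes had 7 negative and 2 positive log2 fold changes with a median of -0.25, or -0.054 with library totals only, and 0 past the threshold. Nlrc5, the class I counterpart of CIITA, was at 0.85 (SE 0.90, edgeR adjusted p = 0.726) on 5 to 90 counts. H2-D1 was at -0.73 (SE 0.39, adjusted p = 0.502) with groups that did not overlap, and H2-K1 at -0.29 (SE 0.38, adjusted p = 0.789). Pup exposure was the wholly lower group in 9.62% of all genes, and by library totals the H2-D1 groups overlapped. In control exposure replicate 1 the summed class II level was 1.61 times the summed class I level, and in the other 5 libraries 0.376 to 0.685 times. Of 6 costimulatory genes 2 were tested, Icosl and Cd274, and Cd80 had at most 1 count in a library.

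Markers of cells that carry class II were read in the same libraries. In bulk RNA, fewer cells of a type, less RNA per cell and a lower share of phosphorylated S6 cannot be told apart. Leukocyte common genes (6 of 6 tested, all negative, median -0.64 but -0.32 with library totals only, 0 past the threshold) summed to 75.2 to 80.9 CPM in the control libraries and 46.5 to 59.9 CPM in the pup libraries, without overlap. This separation depended on TMM scaling. By library totals, control exposure replicate 3 had the lowest summed level of any library, so the groups overlapped. Ptprc, the common leukocyte antigen, had 76 to 204 counts per library and a log2 fold change of -0.42 (SE 0.47, edgeR adjusted p = 0.742). The summed class II level was 27.7 times that of the leukocyte list in control exposure replicate 1, 12.1 and 14.8 times in the other control exposure libraries and 10.1 to 14.6 times after pup exposure.

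Macrophage markers (11 of 11 tested, 7 negative, median -0.16 but 0.061 with library totals only, 0 past the threshold) summed to 155 to 564 CPM in the control libraries and 84.0 to 1150 CPM in the pup libraries. Lyz2 gave most of this sum in control exposure replicate 1 (440 CPM) and pup exposure replicate 3 (1072 CPM). Without Lyz2, a choice made after seeing the data, the other 10 summed to 106 to 124 and 72.1 to 90.1 CPM. By library totals, the sums of these 10 overlapped between groups. Cd68, a lysosomal protein of macrophages, had 44.8, 32.7 and 36.1 CPM in the control libraries and 9.37, 12.7 and 15.4 CPM in the pup libraries, at a log2 fold change of -1.60 (SE 0.38, edgeR adjusted p = 0.375), while Csf1r was at 0.14 (SE 0.49, adjusted p = 0.927).

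Dendritic cell markers (10 listed, 5 tested, 4 negative, median -0.13 but 0.22 with library totals only, 0 past the threshold) summed to 23.4 to 30.1 CPM in the control libraries and 21.1 to 28.8 CPM in the pup libraries. Zbtb46, a transcription factor of conventional dendritic cells, had 4.46, 4.30 and 2.81 CPM in the control libraries and 4.93, 14.6 and 6.91 CPM in the pup libraries. Its groups did not overlap, with pup exposure higher (as in 10.1% of all genes), at a log2 fold change of 1.19 (SE 0.57, edgeR adjusted p = 0.467). By library totals the Zbtb46 groups overlapped by a very small margin. Clec10a, a lectin of dendritic cells and macrophages, was at -1.40 (SE 0.66, edgeR adjusted p = 0.461) with overlapping groups, and Xcr1, a chemokine receptor of cross-presenting dendritic cells, at -2.72 (SE 1.53, adjusted p = 0.519) on 0 to 54 counts. Flt3 was at 0 in 4 libraries and Clec9a had 1 count in all, while Itgax had 0 to 188 counts per library. Among 8 B cell markers 2 were tested, the antibody chain genes Ighm at -1.49 (SE 0.46, edgeR adjusted p = 0.405) and Jchain at -1.56 (SE 0.49, adjusted p = 0.405), both without overlap of groups. Pup exposure was the wholly lower group in 9.62% of all genes. For Ighm the separation depended on TMM scaling, and by library totals its groups overlapped. The list summed to 89.6 to 146 CPM in the control libraries and 20.3 to 66.9 CPM in the pup libraries, while the defining genes Ms4a1, Cd79a and Pax5 were at 0 in at least 4 libraries each. T cell markers (7 listed, 2 tested, both negative, median -1.41) summed to 1.56 to 7.12 and 0.428 to 3.85 CPM. The part of these cell types in the class II values was not tested.

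**Figure D5:**
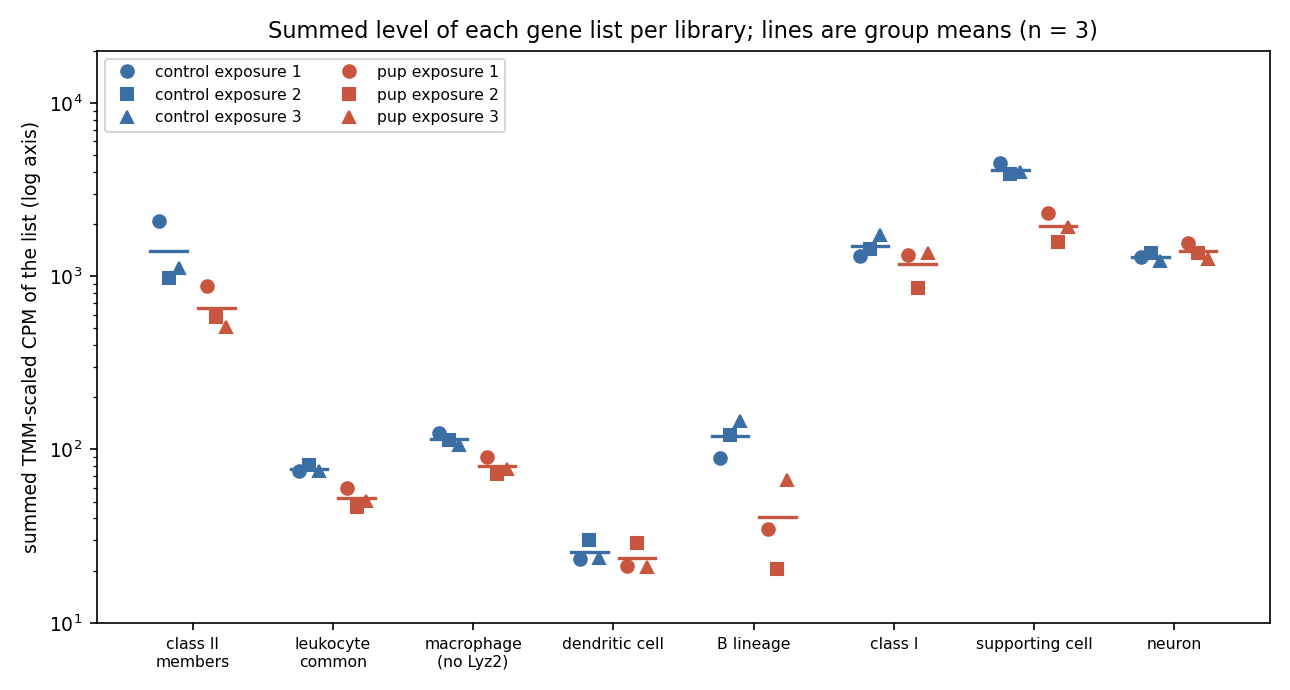
Summed TMM-scaled CPM of each gene list (log axis) in every library, control exposure in blue and pup exposure in red, with a line at each group mean (n = 3). The class II, leukocyte, macrophage without Lyz2, B lineage and supporting cell sums do not overlap between groups, while the dendritic cell, class I and neuron sums do. With library totals in place of TMM-scaled sizes, the class II, leukocyte and macrophage sums overlap too.

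Markers of resident cells were read the same way. Supporting cell markers (6 tested, 5 negative, median -0.67 but -0.44 with library totals only, 0 past the threshold) summed to 3881 to 4482 CPM in the control libraries and 1583 to 2321 CPM in the pup libraries, without overlap. Cbr2, a carbonyl reductase of these cells, was at -1.29 (SE 0.42, edgeR adjusted p = 0.412). Red cell genes (4 tested, all negative, median -1.50) summed to 205 to 591 and 52.5 to 168 CPM, and endothelial markers (6 of 6 tested, all positive, median 0.57 but 1.05 with library totals only) to 4.93 to 14.5 and 13.2 to 19.6 CPM. Gland genes (9 tested, 7 negative, median -0.58 but -0.22 with library totals only) took the largest sums, 276673 to 907473 CPM in the control libraries and 190364 to 459264 CPM in the pup libraries. These sums are over TMM-scaled sizes and are not shares of a library's counts. The highest was in control exposure replicate 3, which had the lowest TMM factor, 0.605. The neuron markers had 1 negative and 4 positive log2 fold changes with a median of 0.58, or 0.92 with library totals only. The part of these cells in the class II values was not tested.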

How the data were processed

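RNA was measured in 6 libraries, 3 per group. The deposited values are whole-number read counts per Ensembl gene, not normalized by the authors. The submitters' processing notes name GRCm38 as the genome. Aligner, counting tool, strand setting and annotation release: not given in the sources used here. Per the labels' protocols, lysates were precipitated with anti-phospho-S6, and cDNA was made with a low-input SMARTer kit and sheared. Gene names came from GENCODE M21, which matched 36639 of 38561 IDs; the other 1922 held 0.172% to 0.233% of a library's counts.

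Counts were tested with edgeR 4.0.16 in R 4.3.3 (quasi-likelihood, TMM, filterByExpr at its minimum count, 10, and minimum total, 15, Benjamini-Hochberg over all genes, threshold 0.05), after checks on simulated data. SEs come from the F statistic. The common biological coefficient of variation was 0.535. Shares and ratios had exact permutation tests. Alternatives used DESeq2 1.42.0 and limma 3.58.1. No label ties a library to its own animal, and the p-values then reflect the spread among these 6 libraries alone, possibly a technical one. Within groups, pairs of libraries differed by more than counting error, at a chi-square of 86.2 to 299.7 for each degree of freedom. The members and lists were chosen with earlier results of these data known. Named genes are the 7 members, up to 6 genes of each list (those of smallest p and the first 3 listed), and the 10 genes of most like pattern. H2-Ea-ps, H2-DMb2, H2-Eb2, Brd2, Dexi, Ifng, Ifngr1, Clec9a, Pax5, Lyz2 and the further neuron markers were named for position, role or level, after their values were seen. Log2 CPM for patterns used a prior count of 2. Results of some listed genes are not reported here.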

Additional observations from a re-analysis of the deposited data

How the results depend on the processing

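For 0 of the 7 class II genes did any alternative pass an adjusted p of 0.05, and 109 of 113 values of single genes kept their direction. The 4 that turned were all of H2-DMb1: 0.14 with library totals only, 0.091 with limma-voom with sample quality weights, 0.14 without control exposure replicate 1 (range -0.24 to 0.14 with single libraries left out) and 0.014 with H2-DMb2 added. The cause was not tested. The median of the 7 ran from -1.002 to -0.60 with single libraries left out and from -0.92 to -0.56 otherwise; library totals only gave -0.56, with the median of all genes moved from 0.030 to 0.31. The ratio of the class II share ran from 0.431 to 0.861 with single libraries left out. Over all genes, 0 higher and 0 lower in edgeR became 61 and 59 without a filter, 50 and 77 in DESeq2, 1 and 7 in limma-voom and 1 and 11 with quality weights; leaving out single libraries gave 0 and 0. Thinning every library to 10590716 counts, chosen after seeing the data, gave a median of -0.79 and 0 calls. With the replicate block the median was -0.92 and 0 genes passed. Same-numbered libraries had deviations that correlated at -0.035, 0.18 and 0.075, so the numbers were not taken as pairs, and not every library correlated best with its own number. Ciita was at -0.77 (SE 0.79) after the thinning, beside -0.76 (SE 0.75).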
